A study of Mus musculus with 4 samples.

Results

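The Polycomb and DNA methylation enzymes described here are 10 genes, taken by exact symbol from the 24391 genes that each count file lists: Ezh1, Ezh2, Eed and Suz12 of Polycomb repressive complex 2 (PRC2), the DNA methyltransferases Dnmt1, Dnmt3a and Dnmt3b, and the dioxygenases Tet1, Tet2 and Tet3. All 10 were listed, and all 10 were among the 16001 genes that passed the count filter. RNA was sequenced from 4 mouse lung tumour samples. The 2 K-Ras samples came from mice with K-Ras LSL-G12D, a mutant K-Ras allele behind a stop cassette that Cre recombinase removes. The 2 K-Ras Mll4-/- samples carried the same allele together with Mll4 fl/fl, alleles of the histone methyltransferase gene Mll4 (now Kmt2d) that Cre deletes. The promoter or virus that supplied Cre, and the age of the mice, are not given in the sources used here. Cre acts only in the cells it reaches, so other cells in the tumour may keep their Mll4. Tumours were dissociated, red cells were lysed and cells with the leukocyte antigen CD45 were depleted with magnetic beads before RNA extraction. The labels do not say whether replicates came from separate mice, so p-values measure only the spread between these samples, which may be technical.

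PRC2 places methyl groups on lysine 27 of histone H3, a mark of silenced genes and of silenced or poised enhancers. EZH2 and EZH1 are its alternative catalytic subunits, EZH2 being typical of dividing cells and EZH1 of resting cells, while EED and SUZ12 are scaffold subunits that the enzyme needs. DNMT3A and DNMT3B add methyl groups to cytosine, DNMT1 copies them after replication, and the TET enzymes oxidise them, which starts their removal. MLL4 methylates lysine 4 of the same histone tail at enhancers and works in one complex with the lysine 27 demethylase KDM6A, so the enzymes here add or remove the marks that stand against active enhancers. The comparison shows whether transcripts of those enzymes differ in tumours labelled as lacking Mll4.

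No member passed the test at an adjusted p under 0.05 in the quasi-likelihood fit of edgeR over all genes, which called 6 genes, or 0.0375% of those tested. At an unadjusted p under 0.05 there were 2 members, Ezh2 and Eed, both higher in K-Ras Mll4-/- tumours, which is 20% of the members. The background was 21.8% of all tested genes, 11.4% higher and 10.4% lower. Of the other tools, DESeq2 and the edgeR likelihood ratio test each called 1 member, Ezh2, where they called 10.0% (5.02% higher) and 9.39% of all tested genes. With limma-voom 0 members and 0.00% of all genes were called, and 2 members had an unadjusted p under 0.05, beside 20.2% of all genes. The samples of the groups did not overlap for 7 members, 3 higher and 4 lower in K-Ras Mll4-/- tumours, which is 70% of the members beside 58.3% of all tested genes, 29.9% higher and 28.5% lower. The median log2 fold change of the members, given throughout as K-Ras Mll4-/- minus K-Ras, was -0.03, beside -0.01 over all tested genes. Ezh2 had the largest change in either direction and Tet1 the largest in the lower direction, as the plots of the levels and of the differences show.

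Levels are given as CPM, the usual depth-scaled read count, with TMM library sizes. Reads assigned to genes numbered 26683033 to 36677987 per sample. Before TMM scaling, 3 reads, taken as the floor, thus amount to between 0.0818 and 0.112 CPM, for counting error only. Members had between 117 and 6169 reads in a sample. Kmt2d, the targeted gene, was at 395 and 526 CPM in the K-Ras samples and 367 and 317 CPM in the K-Ras Mll4-/- samples, and its log2 fold change of -0.43 (SE 0.21) did not pass the threshold (adjusted p by edgeR = 0.302). With offsets for GC content and transcript length it was -0.07. Counts over the whole gene do not show whether single exons were lost, so the loss of Mll4 rests on the labels. Markers of cell types in the tissue also differed between the groups, although edgeR called none of them at an adjusted p under 0.05. DESeq2 called 6 of 7 epithelial, 6 of 8 endothelial and 6 of 8 ciliated markers, where it called 10.0% of all tested genes. It called 2 of 5 club and 2 of 6 alveolar type 1 markers, and 0 or 1 in each other marker list. Of all tested genes, 11.4% were higher and 10.4% lower at an unadjusted edgeR p under 0.05. Of 7 epithelial markers, all 7 had a positive log2 fold change and 6 had an unadjusted edgeR p under 0.05, with a summed level of 917 and 1564 CPM in the K-Ras samples and 3234 and 3540 CPM in the K-Ras Mll4-/- samples. Of 8 endothelial markers, 7 had a negative one and 6 had such a p, with sums of 6960 and 6692 CPM against 4366 and 3439 CPM. Epcam, an epithelial adhesion gene, was at 101 and 126 CPM against 182 and 233 CPM, and Pecam1, the endothelial CD31 gene, at 1360 and 1332 CPM against 944 and 744 CPM. In bulk RNA, fewer cells of a type and less RNA per cell cannot be told apart, and the part of cell content in the differences below was not tested.

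**Figure D1:**
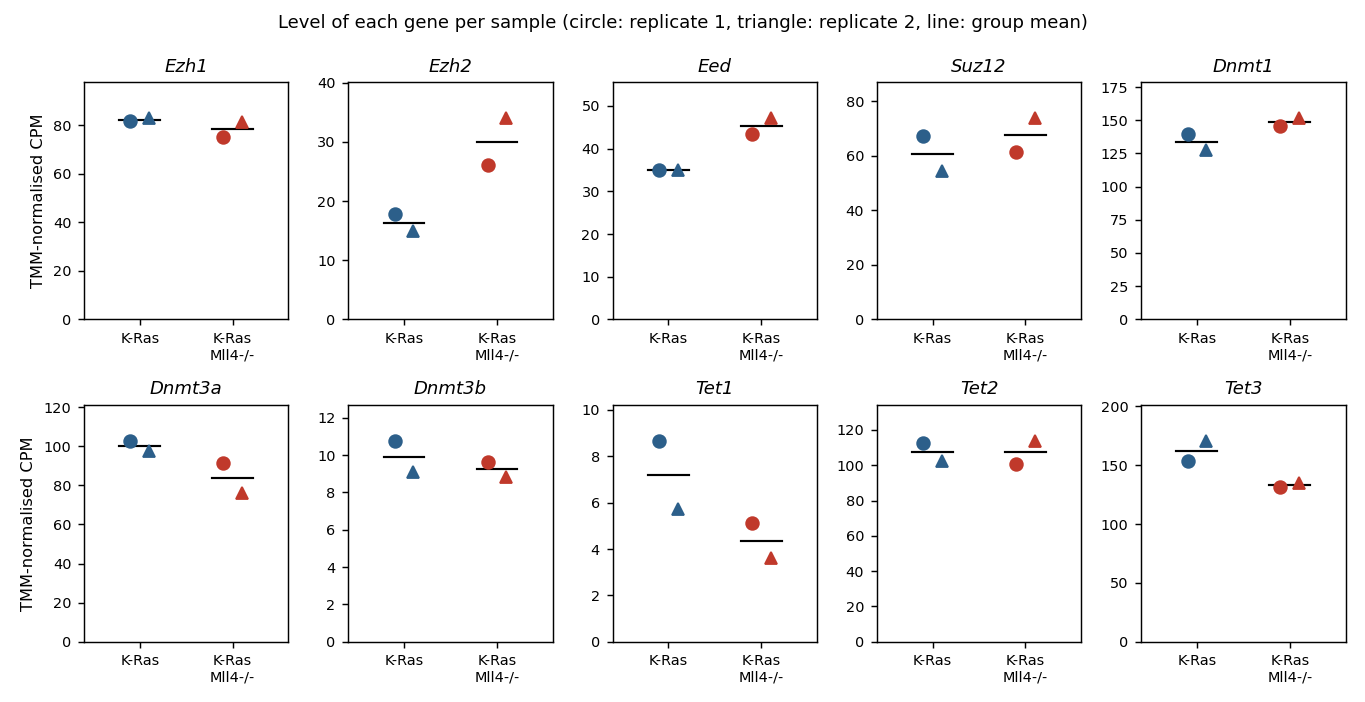
Level of each of the 10 genes in TMM-normalised CPM (y axis, from 0, a scale of its own in each panel) in the 2 K-Ras samples (blue) and the 2 K-Ras Mll4-/- samples (red), with circles for replicate 1, triangles for replicate 2 and a line at the group mean. Ezh2 lies at 14.9 and 17.8 CPM in K-Ras and at 26.2 and 33.9 CPM in K-Ras Mll4-/- tumours, while the samples of Tet2, Suz12 and Dnmt3b overlap.

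Ezh2, the catalytic subunit of PRC2 found mainly in dividing cells, was higher in both K-Ras Mll4-/- samples than in both K-Ras samples. It was at 17.8 and 14.9 CPM in the K-Ras samples (16.3 ± 2.05, SD, n = 2) and at 26.2 and 33.9 CPM in the K-Ras Mll4-/- samples (30.1 ± 5.50, SD, n = 2). The fitted fold was 1.84, a log2 fold change of 0.88 (SE 0.20) that the main test did not call (adjusted p by the edgeR quasi-likelihood test = 0.163). DESeq2 did call it (adjusted p = 0.0292), and so did the edgeR likelihood ratio test (adjusted p = 0.0362). The estimate lay between 0.67 and 1.06 when single samples were left out. By unadjusted edgeR p-value, 5.48% of tested genes ranked ahead of Ezh2.

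Ezh1, the other catalytic subunit, was almost level across the samples. It was at 81.6 and 82.8 CPM in the K-Ras samples and at 75.4 and 81.4 CPM in the K-Ras Mll4-/- samples, a log2 fold change of -0.07 (SE 0.12, adjusted p by edgeR = 0.762), whose sign turned to 0.02 with GC and length offsets. The upper K-Ras Mll4-/- value and the lower K-Ras value differ by less than the spread within the K-Ras Mll4-/- group. Eed, the scaffold subunit that reads the PRC2 mark, was at 35.1 CPM in each K-Ras sample and at 43.4 and 47.1 CPM in the K-Ras Mll4-/- samples. Its log2 fold change was 0.37 (SE 0.12, adjusted p by edgeR = 0.208), and the groups did not overlap. Its unadjusted edgeR p of 0.0354 became 0.0620 with GC and length offsets and 0.0891 in DESeq2. Suz12, the scaffold subunit that holds the complex together, was at 67.1 and 54.3 CPM in the K-Ras samples and at 61.3 and 73.7 CPM in the K-Ras Mll4-/- samples. These overlap, and the log2 fold change was 0.15 (SE 0.17, adjusted p by edgeR = 0.636). Without K-Ras replicate 2 it was -0.00.

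The balance of the catalytic subunits can be read within each sample, where library scaling cancels, though trends with GC content and transcript length do not. Ezh2 took 17.9% (95% Wilson interval 16.6 to 19.3) and 15.2% (14.1 to 16.5) of the reads of Ezh1 and Ezh2 together in the K-Ras samples. In the K-Ras Mll4-/- samples it took 25.8% (24.1 to 27.5) and 29.4% (28.0 to 30.9). No interval of one group reaches those of the other, although the intervals cover counting error only. The ratio of Ezh2 to Ezh1 was 1.92-fold higher in K-Ras Mll4-/- tumours, a log2 difference of 0.94, and the ratio of Ezh2 to Suz12 was 1.65-fold higher, a log2 difference of 0.72. Both separated the groups, with an exact permutation p of 0.333 (two-sided), the smallest that 2 samples against 2 allow, and 0.389 after Benjamini-Hochberg adjustment over the 7 ratios compared. Eed over Suz12 overlapped between the groups (log2 difference 0.21, exact permutation p = 0.667), and with 1 sample dropped its difference lay between 0.058 (without K-Ras replicate 1) and 0.36 (without K-Ras replicate 2). It was 0.14 without K-Ras Mll4-/- replicate 1.

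**Figure D2:**
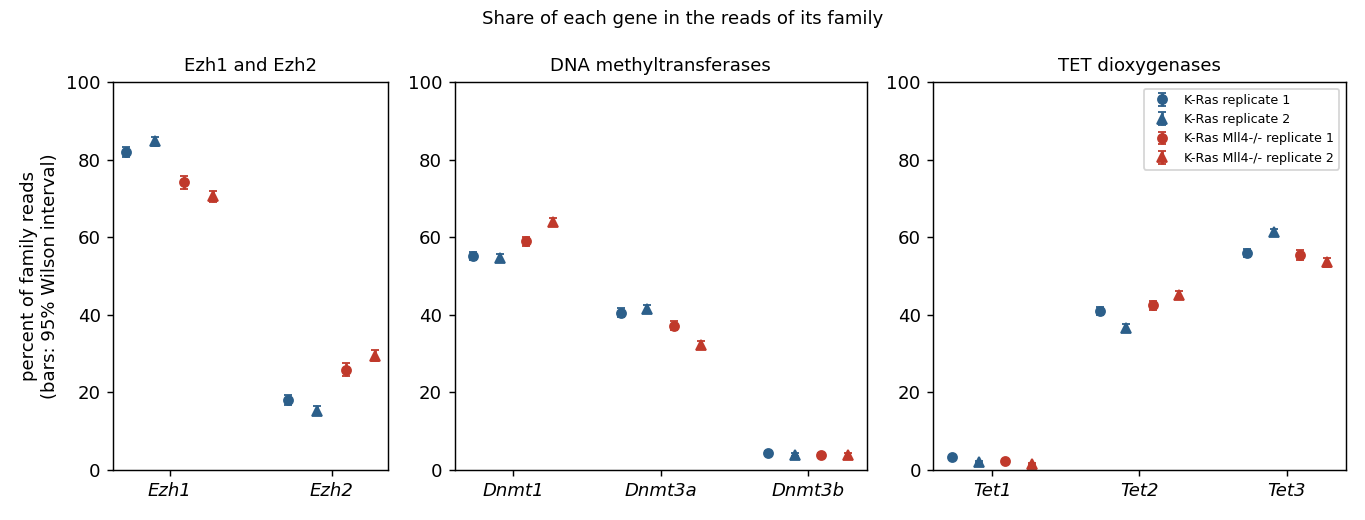
Share of each gene in the reads of its family (y axis, percent) per sample, for Ezh1 with Ezh2, the 3 DNA methyltransferases and the 3 TET genes, with 95% Wilson intervals that cover counting error only. Blue marks K-Ras, red K-Ras Mll4-/-, circles replicate 1 and triangles replicate 2, and the share of Ezh2 is at 15.2% and 17.9% in K-Ras against 25.8% and 29.4% in K-Ras Mll4-/- samples.

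The sequence before the start of the 4 PRC2 genes is shown because Ezh2 and Ezh1 encode alternative subunits whose ratio separated the groups. Each line gives the 250 bases before the RefSeq start (GRCm38.p6, while the reads were placed on mm9, per the submitters' processing notes), 5′ to 3′ on the strand of the gene. Capitals mark 2 kinds of motif searched on both strands, the CCAAT box (CCAAT) bound by NF-Y, and the E2F motif (TTTCCCGC, TTTCGCGC, TTTGCCGC or TTTGGCGC) of the factors that drive genes of S phase. The motifs share no base in these 4 sequences.
Ezh2 (chr6:47595031-47595280, minus strand): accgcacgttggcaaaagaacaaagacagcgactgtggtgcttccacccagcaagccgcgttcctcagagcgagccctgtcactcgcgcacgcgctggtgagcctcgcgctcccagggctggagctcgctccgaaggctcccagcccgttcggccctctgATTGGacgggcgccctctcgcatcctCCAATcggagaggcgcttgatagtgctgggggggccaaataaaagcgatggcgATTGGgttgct
Ezh1 (chr11:101226464-101226713, minus strand): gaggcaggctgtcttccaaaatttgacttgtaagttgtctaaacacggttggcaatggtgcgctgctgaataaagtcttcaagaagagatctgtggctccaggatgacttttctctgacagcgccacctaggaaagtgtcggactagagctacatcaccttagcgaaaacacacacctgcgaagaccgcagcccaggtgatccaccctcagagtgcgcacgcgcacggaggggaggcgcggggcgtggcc
Eed (chr7:89980977-89981226, minus strand): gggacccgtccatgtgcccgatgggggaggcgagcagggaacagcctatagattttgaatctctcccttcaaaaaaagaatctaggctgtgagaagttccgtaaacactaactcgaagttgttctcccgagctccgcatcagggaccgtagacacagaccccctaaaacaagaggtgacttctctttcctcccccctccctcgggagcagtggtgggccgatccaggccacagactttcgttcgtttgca
Suz12 (chr11:79992856-79993105, plus strand): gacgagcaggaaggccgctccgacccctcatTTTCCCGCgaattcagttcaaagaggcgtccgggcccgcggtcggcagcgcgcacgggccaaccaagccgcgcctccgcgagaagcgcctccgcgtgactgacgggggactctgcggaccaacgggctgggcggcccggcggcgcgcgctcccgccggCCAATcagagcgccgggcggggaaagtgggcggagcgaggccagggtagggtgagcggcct

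Ezh2 held 3 CCAAT boxes before its start, beginning 90, 64 and 11 bases upstream, and no E2F motif there, though one begins at base 4 after the start. Ezh1 and Eed held neither motif in those 250 bases, and Suz12 held 1 of each. The 10 genes have 14 such windows in the RefSeq table, of which 5 hold a CCAAT box (35.7%) and 2 an E2F motif (14.3%). Across all 32851 windows listed by RefSeq, 33.9% hold a CCAAT box, 2.79% hold at least 3 and 1.86% hold an E2F motif, or 2.27% where the 50 bases after the start are searched too. Among the 15028 windows of tested genes these shares are 34.5%, 3.73%, 2.86% and 3.43%. Among 21 windows found for the proliferation genes described further on, 17 hold a CCAAT box and 4 an E2F motif. Dnmt1 has 3 starts there, with 4, 0 and 3 CCAAT boxes, and the last of these windows also holds 1 E2F motif. Tet3 has 1 CCAAT box. The windows of Dnmt3a, Dnmt3b, Tet1 and Tet2 hold neither motif. A match of letters is a description and not a site, and a link between these motifs and the levels was not tested.

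Among the DNA methyltransferases, the maintenance enzyme and the de novo enzyme Dnmt3a differed in opposite directions, both by small amounts that no tool called. Dnmt1, which restores methylation on newly replicated DNA, was at 140 and 128 CPM in the K-Ras samples and 146 and 151 CPM in the K-Ras Mll4-/- samples. Its log2 fold change was 0.15 (SE 0.13, adjusted p by edgeR = 0.526), it was 0.073 without K-Ras replicate 2, and it grew to 0.32 with GC and length offsets (adjusted p by edgeR = 0.305). Dnmt3a, the main de novo methyltransferase of adult tissues, was at 103 and 97.3 CPM in the K-Ras samples and 91.7 and 76.1 CPM in the K-Ras Mll4-/- samples. The K-Ras Mll4-/- values lie below the K-Ras values, with a log2 fold change of -0.25 (SE 0.15, adjusted p by edgeR = 0.361) that shrank to -0.08 with the offsets. It was -0.39 without K-Ras Mll4-/- replicate 1 and -0.13 without K-Ras Mll4-/- replicate 2. Dnmt3b, the de novo methyltransferase most active in early embryos, was the scarcest of the 3, at 10.8 and 9.08 CPM in the K-Ras samples and 9.64 and 8.84 CPM in the K-Ras Mll4-/- samples. These overlap, with a log2 fold change of -0.10 (SE 0.21, adjusted p by edgeR = 0.802).

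Within the reads of the 3 methyltransferases, Dnmt1 took 55.2% and 54.6% in the K-Ras samples and 59.0% and 64.0% in the K-Ras Mll4-/- samples. The share of Dnmt3a was 40.6% and 41.5% against 37.1% and 32.2%, and that of Dnmt3b stayed between 3.74% and 4.25%. The ratio of Dnmt1 to Dnmt3a was 1.33-fold higher in K-Ras Mll4-/- tumours, a log2 difference of 0.41 that lay between 0.25 (without K-Ras Mll4-/- replicate 2) and 0.57 with 1 sample dropped (exact permutation p = 0.333, 0.389 adjusted over the 7 ratios). Both K-Ras samples lay close together on this ratio, at 1.36 and 1.31, while the K-Ras Mll4-/- samples were at 1.59 and 1.99. Dnmt3b over Dnmt3a differed by 0.16 on the log2 scale, by 0.077 without K-Ras replicate 2, by 0.089 without K-Ras Mll4-/- replicate 2 and by 0.24 without K-Ras replicate 1.

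Of the TET dioxygenases, Tet2 and Tet3 carried nearly all reads, and Tet1, best known from embryonic stem cells, was scarce. Tet1 was at 8.67 and 5.73 CPM in the K-Ras samples and 5.10 and 3.63 CPM in the K-Ras Mll4-/- samples, from 265 and 207 reads against 134 and 117 reads. Every K-Ras Mll4-/- value lies below every K-Ras value, but the lower K-Ras value and the upper K-Ras Mll4-/- value are closer to each other than the replicates of either group are. Its log2 fold change of -0.72 (SE 0.34) did not pass the threshold (adjusted p by edgeR = 0.294), and it was -0.39 without K-Ras replicate 1. Tet3, a widely expressed TET enzyme, was at 154 and 171 CPM in the K-Ras samples and 132 and 135 CPM in the K-Ras Mll4-/- samples. The groups did not overlap, and the log2 fold change was -0.28 (SE 0.13, adjusted p by edgeR = 0.283), but with GC and length offsets it was -0.06. Tet2, which is often mutated in blood cancers, was at 112 and 102 CPM in the K-Ras samples and 101 and 114 CPM in the K-Ras Mll4-/- samples. Its group means were 107 ± 7.28 and 107 ± 9.22 CPM (SD, n = 2 each), and its log2 fold change was -0.00 (SE 0.14, adjusted p by edgeR = 0.998).

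Within the TET reads, Tet1 took 3.15% and 2.06% in the K-Ras samples and 2.15% and 1.44% in the K-Ras Mll4-/- samples, so the groups overlap. Tet2 took 40.9% and 36.7% against 42.4% and 45.1%, and Tet3 took 55.9% and 61.3% against 55.4% and 53.5%. For Tet3 the Wilson intervals of K-Ras replicate 1 (54.9 to 57.0) and K-Ras Mll4-/- replicate 1 (54.2 to 56.7) overlap. The ratio of Tet3 to Tet2 was lower in K-Ras Mll4-/- tumours by 0.28 on the log2 scale, and that of Tet1 to Tet2 by 0.71, each with an exact permutation p of 0.333 (0.389 adjusted over the 7 ratios). The log2 difference of Tet3 over Tet2 was -0.13 without K-Ras replicate 2 and -0.42 without K-Ras replicate 1, and that of Tet1 over Tet2 was -0.38 without K-Ras Mll4-/- replicate 2. With GC and length offsets the log2 fold changes of Tet3 and Tet2 were -0.06 and 0.05, closer together than without them.

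**Figure D3:**
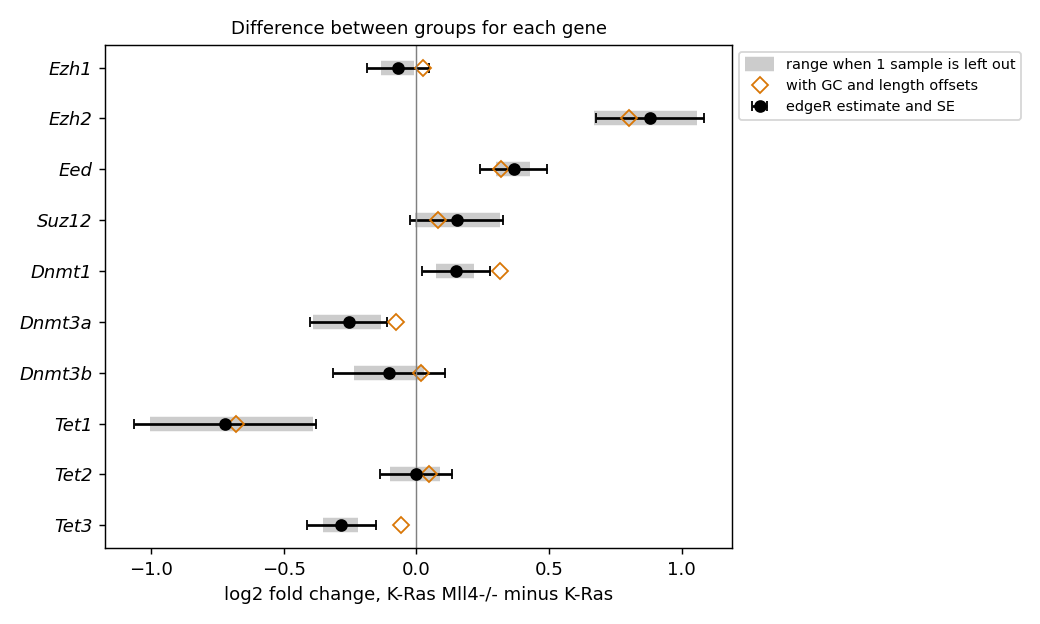
Log2 fold change of each gene, K-Ras Mll4-/- minus K-Ras (x axis), with the edgeR estimate and its standard error in black, the range over the 4 fits that each leave out 1 sample in grey, and the estimate with GC and length offsets as a diamond. Ezh2 stays between 0.67 and 1.06 in the grey range and Tet2 sits at -0.00, while the diamonds of Dnmt3a and Tet3 move to -0.08 and -0.06.

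Levels of different genes were compared per kilobase of the longest GENCODE M21 transcript, as CPM per kb. In K-Ras tumours the order of these levels was Dnmt1 (22.8 ± 1.44 CPM per kb, SD, n = 2), Ezh1 (19.5), Eed (17.0), Tet3 (14.9), Suz12 (13.9), Tet2 (11.7), Dnmt3a (10.3), Ezh2 (5.86), Dnmt3b (2.30) and Tet1 (0.501). Neighbours in that order were separate in both samples except Tet3 and Suz12, which overlapped. Ezh1 thus stood above Ezh2 among the catalytic subunits of PRC2, and Dnmt3a above Dnmt3b among the de novo methyltransferases. In K-Ras Mll4-/- tumours Dnmt1 again led, at 25.3 CPM per kb. Eed was next at 21.9, ahead of Ezh1 at 18.6, and Ezh2 stood at 10.8, between Tet2 at 11.7 and Dnmt3a at 8.66 and overlapping with both. With merged exon lengths, a choice made after seeing the files, Dnmt1 stayed the highest in both groups and Suz12 moved to second place. Ezh2, Dnmt3b and Tet1 were then the lowest in that order in both groups. In K-Ras Mll4-/- tumours this put Ezh2 (4.50 CPM per kb) below Dnmt3a (5.04), the reverse of their order by the longest transcript.

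The other parts of the machinery were read from lists of related genes. Of 12 accessory subunits of PRC2, 9 were tested, since 2 symbols were not matched and Scml2 did not pass the filter. Of the 9, 0 were called by edgeR, DESeq2 or limma-voom, which called 0.0375%, 10.0% and 0.00% of all tested genes. An unadjusted edgeR p under 0.05 was found for 2, both higher, against 21.8% of all tested genes in either direction. Their median log2 fold change was 0.16. Rbbp7, a histone-binding subunit, was at 92.1 and 88.4 CPM in the K-Ras samples and 116 and 140 CPM in the K-Ras Mll4-/- samples, a log2 fold change of 0.50 (SE 0.15, adjusted p by edgeR = 0.186). Lcor, whose locus also encodes a PRC2 partner, had a log2 fold change of 0.37, and Phf1, a chromatin reader that recruits PRC2, one of -0.41, with adjusted p by edgeR of 0.217 and 0.232. Of 24 subunits of Polycomb repressive complex 1 (PRC1), which adds ubiquitin to histone H2A and compacts chromatin, 0 were called by edgeR, DESeq2 or limma-voom and 0 had an unadjusted edgeR p under 0.05. Their median log2 fold change was 0.01, from -0.40 to 0.54, or -0.04 with total-count scaling. Pcgf6 and Bcorl1, subunits of variant PRC1 complexes, had log2 fold changes of 0.52 and 0.54 (adjusted p by edgeR = 0.253 and 0.269).

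Enzymes that remove Polycomb marks showed no call either. Of the 9 tested, 0 were called by edgeR, DESeq2 or limma-voom, 1 had an unadjusted edgeR p under 0.05, and the median log2 fold change was -0.10. Of all tested genes, those tools called 0.0375%, 10.0% and 0.00%, and 21.8% had such a p, so these counts do not set the erasers apart. Kdm6b, an H3 lysine 27 demethylase induced by signalling, was the one with the small p, at 54.1 and 68.7 CPM in the K-Ras samples and 46.3 and 39.3 CPM in the K-Ras Mll4-/- samples. The groups did not overlap (log2 fold change -0.52, SE 0.18, adjusted p by edgeR = 0.211), and the offsets for GC and length left -0.23. Kdm6a, the demethylase that partners MLL4, was at 87.8 and 93.5 CPM against 83.4 and 86.3 CPM, a log2 fold change of -0.10 (SE 0.12, adjusted p by edgeR = 0.663). Asxl1 and Mysm1, which act in removing ubiquitin from H2A, had log2 fold changes of -0.29 and -0.17 (adjusted p by edgeR = 0.253 and 0.419).

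Among 25 partners of DNA methylation, readers and base repair genes, 23 were tested, since 1 symbol was not matched and Dnmt3l did not pass the filter. In these 23 the smallest p-values belonged to Uhrf1, Hells and Gadd45b. The edgeR quasi-likelihood test and limma-voom called 0, 4 had an unadjusted edgeR p under 0.05 (3 higher, 1 lower), and DESeq2 called 2, Uhrf1 and Hells. Neither share of the list is above that of all tested genes, 21.8% and 10.0%. Uhrf1, which brings DNMT1 to half-methylated DNA, was at 14.7 and 11.0 CPM in the K-Ras samples and 23.1 and 29.2 CPM in the K-Ras Mll4-/- samples. Its log2 fold change was 1.02 (SE 0.23, adjusted p by edgeR = 0.158, DESeq2 adjusted p = 0.0166). Hells, a chromatin remodeller needed for DNA methylation, was at 9.78 and 7.06 CPM against 16.2 and 17.6 CPM, a log2 fold change of 1.01 (SE 0.23, adjusted p by edgeR = 0.163, DESeq2 adjusted p = 0.0235). Both genes separated the groups, with larger folds than Dnmt1 itself. Gadd45b, a stress gene tied to DNA demethylation, was lower, at 28.6 and 29.7 CPM against 18.9 and 21.0 CPM (log2 fold change -0.55, SE 0.14, adjusted p by edgeR = 0.175). The median of the list was 0.12.

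**Figure D4:**
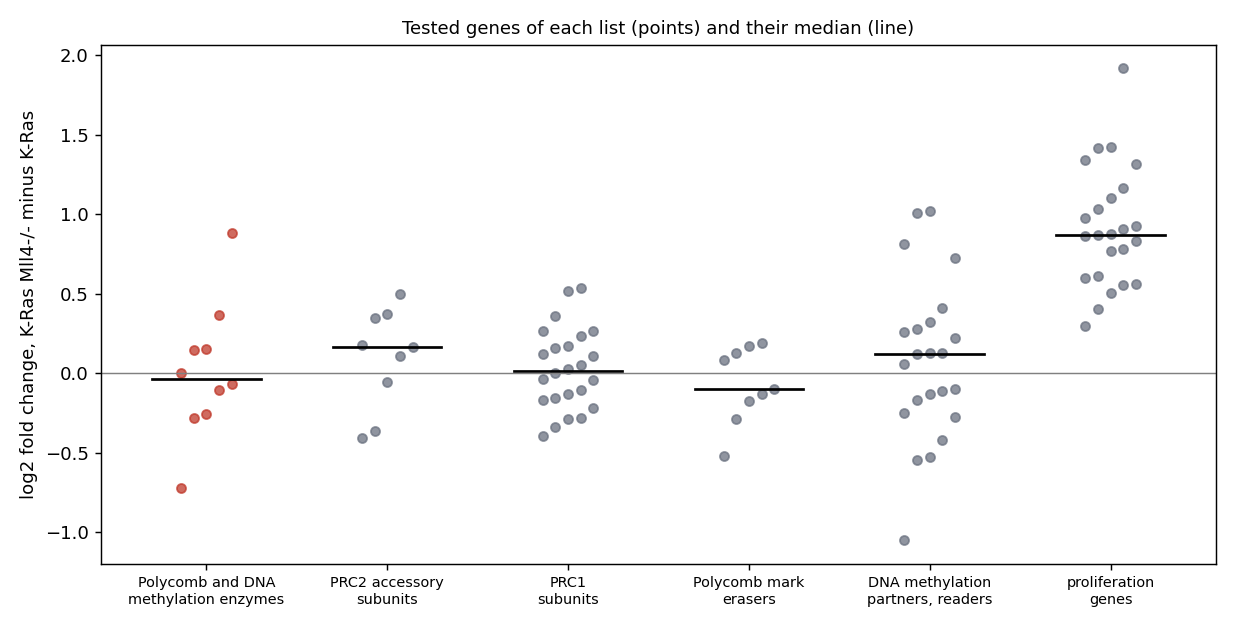
Log2 fold change, K-Ras Mll4-/- minus K-Ras (y axis), of each tested gene (points) in the 10 Polycomb and DNA methylation enzymes (red) and 5 lists of related genes (grey), with a line at the median of each list. The medians of the enzymes, the PRC2 accessory subunits, PRC1, the mark erasers and the DNA methylation partners lie between -0.10 and 0.16, and that of the proliferation genes at 0.87.

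Ezh2 and Uhrf1 are known to be expressed with the cell cycle, so 24 proliferation genes were set beside them. All 24 had positive log2 fold changes with no overlap between the groups (29.9% of all tested genes did so in that direction), with a median of 0.87. The summed level was 413 and 373 CPM in the K-Ras samples and 671 and 715 CPM in the K-Ras Mll4-/- samples. The edgeR quasi-likelihood test and limma-voom called 0 of them, 20 had an unadjusted edgeR p under 0.05, and DESeq2 called 12. Of all tested genes, the first 2 tests called 0.0375% and 0.00%, 11.4% were higher with such a p, and DESeq2 called 10.0% (5.02% higher). Mki67, the gene of the Ki-67 proliferation antigen, was at 92.8 and 82.8 CPM in the K-Ras samples and 160 and 173 CPM in the K-Ras Mll4-/- samples (log2 fold change 0.92, SE 0.14, adjusted p by edgeR = 0.135), and Cdk1 and Ccnb2 had log2 fold changes of 1.92 and 1.32 (adjusted p by edgeR = 0.135 and 0.144). Relative to the mean log2 CPM of these genes in the same sample, Ezh2 was at 0.90 and 0.74 in the K-Ras samples and 0.59 and 0.94 in the K-Ras Mll4-/- samples. On that scale the groups overlap and differ by -0.06 (exact permutation p = 1). Uhrf1 overlapped too, with a difference of 0.10 (exact permutation p = 0.667). With 2 samples against 2, this permutation test cannot show that the groups are equal. Whether proliferation has a part in the levels of Ezh2 or Uhrf1 was not tested. Relative to the 24 proliferation genes, Dnmt1 and Eed differed by -0.78 and -0.56 on the log2 scale, without overlap (exact permutation p = 0.333 each, the smallest possible). These genes were themselves higher in K-Ras Mll4-/- tumours, so a gene that rose less than they did comes out lower on this scale. In CPM, Dnmt1 and Eed were higher in both K-Ras Mll4-/- samples than in both K-Ras samples (log2 fold changes 0.15 and 0.37). The differences on this scale therefore show no fall of either gene. The choice of this reference level was made after seeing the data.

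**Figure D5:**
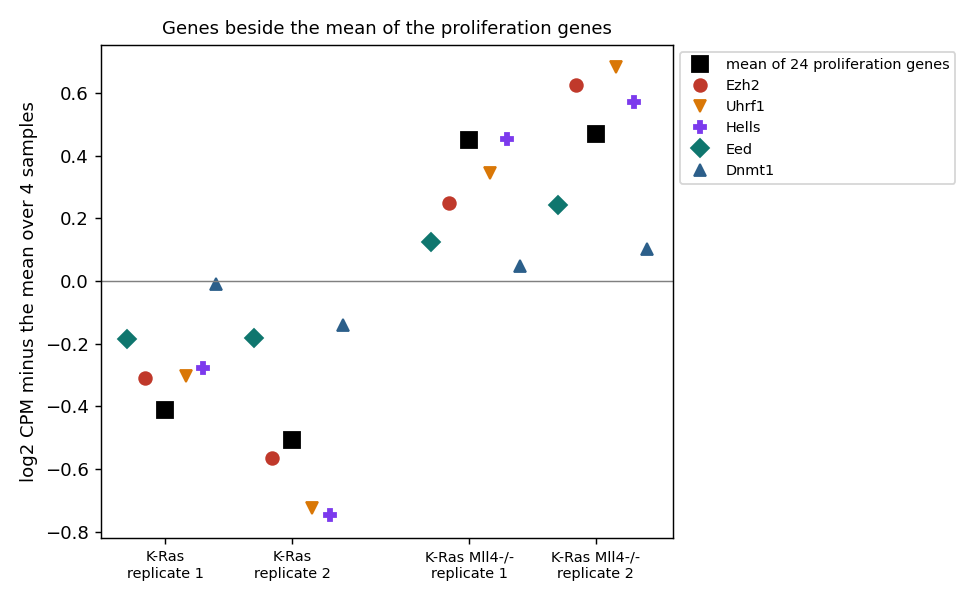
Log2 CPM minus its mean over the 4 samples (y axis) for the mean of 24 proliferation genes (black squares) and for Ezh2, Uhrf1, Hells, Eed and Dnmt1 in each sample (x axis). Each of these genes lies, like the squares, below 0 in both K-Ras samples and above 0 in both K-Ras Mll4-/- samples, and Dnmt1 spans the narrowest range.

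Other cell type markers bear on these values as well. Of 11 leukocyte markers, 5 had positive and 6 negative log2 fold changes, and Ptprc, the CD45 gene, was at 274 and 143 CPM in the K-Ras samples and 269 and 171 CPM in the K-Ras Mll4-/- samples, so leukocyte RNA remained after depletion. The leukocyte sums were 4957 and 4545 CPM against 5008 and 3210 CPM. Lyz2 alone made up most of each sum, at 4173 and 4211 CPM against 4303 and 2822 CPM, so the sums mainly follow that gene. Of 8 fibroblast markers 7 were negative (median -0.85), with sums of 2616 and 1195 CPM against 917 and 923 CPM. All 8 ciliated markers were negative (median -2.33), with sums of 328 and 1234 CPM against 280 and 284 CPM. Foxj1, the regulator of motile cilia, was at 27.8 and 222 CPM against 12.8 and 16.5 CPM, so K-Ras replicate 2 stood apart. All 5 club cell markers were negative (median -1.33), with sums of 768 and 3757 CPM against 829 and 657 CPM, so the groups overlap. Without K-Ras replicate 2 the log2 fold change of Ezh2 was 0.74, that of Eed 0.35 and that of Tet3 -0.22. The 7 alveolar type 2 markers had a median of -0.26 and the 6 type 1 markers one of 0.16, and their sums overlapped between the groups. Of the mesothelial markers 3 of 5 passed the count filter, with a median of -0.40 but sums of 21.8 and 22.6 CPM in the K-Ras samples against 124 and 224 CPM. The sum follows Msln alone, at 13.8 and 17.0 CPM against 120 and 221 CPM, while Upk1b was at 6.93 and 4.32 CPM against 2.74 and 2.20 CPM. Wt1, Upk3b and Lrrn4 were under 1 CPM in every sample. Of the red blood cell markers 1 of 6 passed, with a log2 fold change of -0.17. Nothing in these values separates how much each cell type contributes to the level of an enzyme, and that was not tested.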

How the data were processed

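RNA from 4 CD45-depleted mouse lung tumour samples, 2 K-Ras and 2 K-Ras Mll4-/-, was sequenced on an Illumina HiSeq 2000, per the labels' protocols. The authors deposited raw read counts per gene symbol, 1 file per sample. The submitters' processing notes name CASAVA 1.4, STAR, HTSeq and the build mm9. The annotation and strand setting are not given in the sources used here, so reads of overlapping or antisense genes may not be told apart. Reads aligned to more than 1 place were tallied apart from genes, so counts of genes with close copies are too low. The 5 tally lines, which hold between 60.1% and 65.6% of all tallied and counted reads of a sample, were left out of library sizes and tests.

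Groups came from the sample titles. Counts were fitted over all genes with edgeR 4.0.16 in R 4.3.3 (default count filter, TMM scaling, robust quasi-likelihood test, Benjamini-Hochberg adjustment, called under 0.05). The standard error is the size of a log2 fold change over the square root of F. CPM values use TMM library sizes. The members, lists and tests were chosen with earlier results of these data known. Genes named beyond the members were Kmt2d, Kdm6a, Kdm6b, Uhrf1, 4 markers and the 3 with the smallest p in each of 5 lists, of which 1 is not reported here. Marker lists, 10 in all, were described by counts and sums. Alternatives were other scalings and filters, DESeq2 1.42.0, limma-voom (limma 3.58.1), the likelihood ratio test, a fit that is not robust, the replicate block, GC and length offsets (mgcv 1.9.3, 99.13% of tested genes matched), and leaving out each sample. The fit was tested on simulated counts. Promoters come from RefSeq (GRCm38.p6), with all 10 members matched by symbol.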

Additional observations from a re-analysis of the deposited data

How the results depend on the processing

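Each group has 2 samples, and the scarcest member, Tet1, had at least 117 reads in a sample. Ezh2, Eed, Dnmt1, Dnmt3a, Tet1 and Tet3 kept their direction in 12 alternative fits and in the 4 that leave out 1 sample. The 7 ratios kept theirs with a pseudocount of 1 CPM and when single samples were left out, but they were not computed with GC and length offsets. When single samples were left out, log2 fold changes ranged from -0.13 to -0.0086 for Ezh1, 0.67 to 1.06 for Ezh2, -0.0050 to 0.32 for Suz12 (-0.0050 without K-Ras replicate 2), -0.23 to 0.029 for Dnmt3b (0.029 without K-Ras replicate 1), and -0.099 to 0.090 for Tet2 (0.090 without K-Ras Mll4-/- replicate 1 and 0.074 without K-Ras replicate 1), the number of called genes from 0 to 528, and the members at an unadjusted p under 0.05 from 0 to 2. The cause of the 528, without K-Ras replicate 1, was not tested. List medians then ranged from 0.056 to 0.24 for PRC2 accessory subunits, -0.016 to 0.069 for PRC1, -0.14 to -0.062 for the erasers, 0.025 to 0.13 for the DNA methylation partners and 0.77 to 0.97 for proliferation, of which 0 to 1 genes were called.

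Against 6 called genes, 44 were called with no count filter, 1601 by DESeq2, 1503 by the likelihood ratio test and 0 by limma-voom, where 3228 had an unadjusted p under 0.05. Both DESeq2 and the likelihood ratio test called 1 member, Ezh2 (log2 fold change 0.87 and 0.88), and left 1 at an unadjusted p under 0.05, against 2 in the main fit. They called 2 and 2 of the DNA methylation partners and 12 and 11 proliferation genes. GC and length offsets reversed Ezh1 to 0.025, Dnmt3b to 0.020 and Tet2 to 0.050, left 1 member at an unadjusted p under 0.05, and moved the median of PRC1 to 0.078 and of the erasers to -0.0016. Tet2 was also reversed with no count filter (0.0093). Scaling by the upper quartile or total counts moved the median of PRC1 to -0.042 and -0.038 and of the erasers to -0.15 and -0.15. In each case the cause was not tested.

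The groups share replicate numbers 1 and 2, but the labels give same-numbered samples nothing else in common, and 2 pairs are too few to show pairing. Their deviations correlated at 0.213 over genes. With the replicate block, 217 genes were called and 0 members. With the block and the offsets, 394 genes were called, 1 of them a proliferation gene, 1 member had an unadjusted p under 0.05, Ezh1 was at 0.024, Dnmt3b at 0.030 and Tet2 at 0.053, and the medians of PRC1 and the erasers were 0.074 and -0.00090. For the ratios the block cannot change a difference of group means in this balanced layout (0.94 for Ezh2 over Ezh1 either way), so it tests nothing there.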
